A study of Mus musculus with 12 samples.

Results

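Lysosomes digest what a cell takes up, and 37 genes that encode their proteases, other hydrolases and membrane proteins were followed in cells sorted from the injured mouse spinal cord. The genes were taken by name, as genes that serve the clearance of debris after injury, and not by a threshold on a measured value. They were chosen with earlier results of these data known, so the set is not independent of the data. All 37 were among the 16389 genes of the deposited table, and all 37 were among the 16388 genes tested. They comprised 10 cysteine proteases, 3 aspartic and serine proteases, 9 glycosidases and sulfatases, 3 lipid hydrolases, 2 precursors of small secreted or activator proteins, 7 membrane proteins, and 3 genes of an ion channel, a proton pump subunit and a transcription factor.

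The mice carried eGFP under the promoter of the astroglial gene Aldh1l1 (Aldh1l1-EGFP, Swiss Webster strain background), were adult males, and received a hemisection (HS) or a full transection (FT) of the thoracic spinal cord. Living eGFP+ cells were sorted from the segment around the lesion 1 or 2 weeks later, or from the same level of non-injured (NI) mice, and polyA RNA was sequenced. NI and HS 1 week had 3 libraries each, HS 2 weeks had 2, FT 1 week had 1 and FT 2 weeks had 3. More animals than libraries were used in the study, so libraries pool animals, and the FT 1 week group had no replicate.

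Most lysosomal hydrolases are made as precursors in the endoplasmic reticulum, receive a mannose 6-phosphate tag in the Golgi apparatus and are carried by receptors to acidic endosomes, where they are cut to their active form. Heavily glycosylated membrane proteins line the organelle, a vacuolar ATPase pumps protons into it, and the transcription factor TFEB raises many of its genes through the CLEAR element, whose core is an E-box. In the injured cord, microglia and infiltrating macrophages are the professional phagocytes of myelin and dying cells, and astrocytes also carry lysosomes.

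The libraries held between 8270643 and 15562378 reads, and levels below are in normalized counts, the authors' reads per gene over a scaling factor of each library, in which 1 read equals 0.0612 to 0.134. The label "astrocytes" did not describe all the RNA. Astrocyte genes were detected (sum over 15 genes between 1757 and 10319 per library), but the sum over 12 oligodendrocyte genes was between 56755 and 117456. A sum over 8 pericyte and fibroblast genes was 7028, 695 and 538 in NI and 6025, 11595 and 8200 at 2 weeks after FT. It was between 229 and 4652 in the other injured libraries. The sum over 17 microglia and macrophage genes, none of them a member, was 917, 4555 and 5988 in NI, 2638, 691 and 9793 at 1 week and 9292 and 1576 at 2 weeks after HS, 7599 at 1 week and 1638, 1294 and 1966 at 2 weeks after FT. No gene of that list was at 0 in any library, and the microglial genes P2ry12 and Tmem119 had at least 39.7 and 12.9 normalized counts. A sum over 10 neutrophil genes was 771, 6185 and 10681 in NI and at most 2847 in the injured libraries. All 10 of these genes were lower in the mean of the injured groups at an unadjusted p under 0.05 from limma-trend, which called none of them, while the likelihood ratio test of edgeR called 10 and DESeq2 9. In such bulk RNA, fewer cells of a type and less RNA per cell cannot be told apart.

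Promoters were looked up in RefSeq for GRCm38.p6, from 250 bases before to 50 bases after a start listed there, and 33 of the 37 genes had an entry. The listed start was not always that of the annotated gene. The Cd63 window (chr10:128909095-128909394) lay within the gene, and that of Laptm4a ended before its gene began. Of 38 promoters, 35 had their last 30 bases in a transcript of the gene. Ctsa, Lgmn, Psap and Tfeb had more than 1 promoter, each at a start of its own. The 2 motifs searched on both strands were the palindromic E-box of the CLEAR type, TCACGTGA, with its core CACGTG, which overlaps it, and GAGGAAGT (ACTTCCTC on the other strand), the type of site bound by the myeloid factor PU.1. TCACGTGA stood in the promoters of 4 of the 33 members (Ctsa, Ctsd, Gla and Mcoln1) and of 1.125% of 27025 genes. CACGTG stood in 10 of the 33 and in 8.093% of all genes, and GAGGAAGT in 4 of the 33 (Ctsc, Ctss, Gla and Gusb) and in 3.689% of all genes. Of the 2 Ctsa promoters, the one at the start of the annotated gene (chr2:164832622-164832921) held none of these motifs, and the other, at a start within the gene, held the E-box and is the one shown. A match is a string of letters and not a measured binding site. Of the members with GAGGAAGT, Ctsc, Ctss and Gusb had a called slope on the microglial genes (below) and Gla had not. Laptm5 and Cd68 had called slopes without that motif in their promoters, and Ctsd had both the E-box and a called slope. A link between motif and slope was not tested. The 4 promoters below are shown because Ctsa (at its downstream start) and Ctsd hold the E-box, and Ctss and Ctsc the other motif, and because these proteases differed in how they followed the microglial genes (below). Capitals mark the matches. They lie at chr2:164833523-164833822 (plus strand), chr7:142387778-142388077 (minus strand), chr3:95526536-95526835 (plus strand) and chr7:88277835-88278134 (plus strand).
Ctsa: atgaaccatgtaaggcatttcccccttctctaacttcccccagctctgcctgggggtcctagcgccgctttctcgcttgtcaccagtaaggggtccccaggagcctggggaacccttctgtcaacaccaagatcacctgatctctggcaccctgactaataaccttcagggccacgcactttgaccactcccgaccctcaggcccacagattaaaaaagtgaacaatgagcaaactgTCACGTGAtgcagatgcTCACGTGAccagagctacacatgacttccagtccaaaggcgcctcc
Ctsd: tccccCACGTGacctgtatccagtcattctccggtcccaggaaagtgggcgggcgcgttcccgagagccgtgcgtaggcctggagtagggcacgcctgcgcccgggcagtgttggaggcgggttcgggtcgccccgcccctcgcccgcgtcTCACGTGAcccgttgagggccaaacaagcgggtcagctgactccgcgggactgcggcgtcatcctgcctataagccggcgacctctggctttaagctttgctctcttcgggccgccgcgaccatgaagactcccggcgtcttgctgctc
Ctss: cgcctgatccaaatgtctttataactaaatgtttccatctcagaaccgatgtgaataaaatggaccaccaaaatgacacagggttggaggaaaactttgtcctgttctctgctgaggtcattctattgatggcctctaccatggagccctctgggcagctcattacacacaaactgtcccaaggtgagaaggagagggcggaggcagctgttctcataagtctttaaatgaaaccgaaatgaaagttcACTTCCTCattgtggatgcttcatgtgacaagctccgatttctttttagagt
Ctsc: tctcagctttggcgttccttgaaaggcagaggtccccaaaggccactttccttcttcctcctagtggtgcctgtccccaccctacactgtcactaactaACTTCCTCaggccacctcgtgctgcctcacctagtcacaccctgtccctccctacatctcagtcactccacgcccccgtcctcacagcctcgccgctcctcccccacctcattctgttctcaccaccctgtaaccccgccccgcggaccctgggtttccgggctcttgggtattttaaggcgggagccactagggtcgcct

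**Figure D1:**
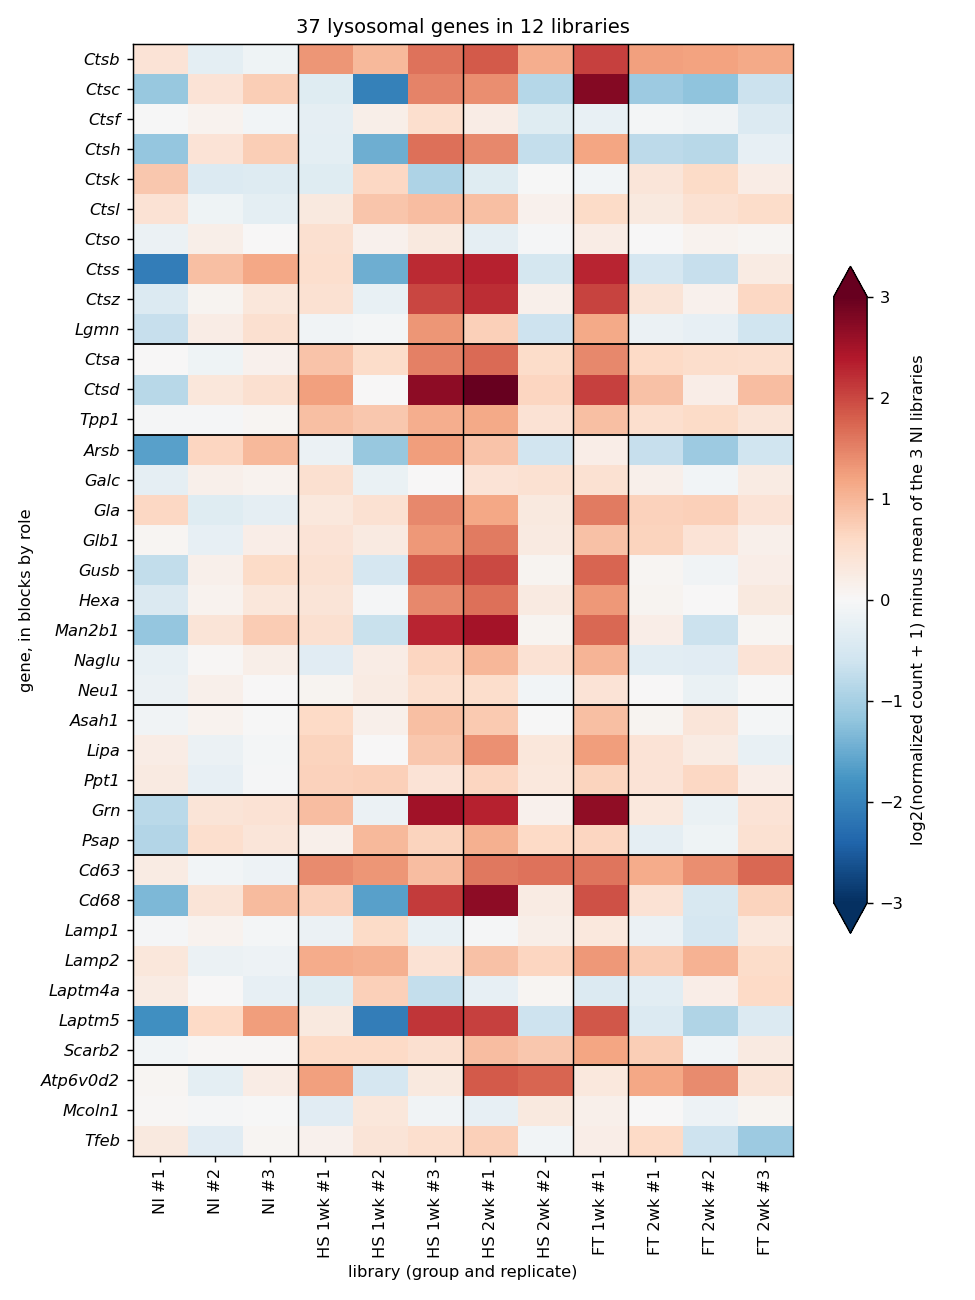
Log2 of the normalized count plus 1, minus the mean of the 3 NI libraries, for the 37 genes (rows, in blocks by role) in the 12 libraries (columns), with the colour scale ending at -3 and 3. Ctsb and Cd63 were above the NI mean in all 9 injured libraries, whereas Ctss, Laptm5 and Cd68 varied within groups, NI included.

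Lysosomal transcripts took a larger share of the RNA in some injured libraries than in others. The 37 genes summed to 9683, 13469 and 14911 normalized counts in NI, 19415, 15385 and 36745 at 1 week and 42056 and 15918 at 2 weeks after HS, 35609 at 1 week and 16009, 14824 and 17601 at 2 weeks after FT. The highest sums were those of HS 1 week replicate 3, HS 2 weeks replicate 1 and FT 1 week, and FT 2 weeks replicate 2 lay below NI replicate 3. As a share of each library the members took 0.971% to 1.69% in NI and 1.36% to 3.96% after injury.

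Single genes were tested with limma-trend on log2(normalized count + 1) in 1 model of all groups, and a gene was called at an adjusted p under 0.05 (Benjamini-Hochberg, over all genes tested) and a change of at least 2-fold. Log2 fold changes below are on this scale, which understates the change of low genes. Against NI, no member was called at 1 week (0.00610% of all genes called) or 2 weeks (0.0122%) after HS, or at 1 week (0.452%) or 2 weeks (0.0427%) after FT. At an unadjusted p under 0.05 there were 8, 9, 14 and 5 members. Counts at that cutoff, here and elsewhere, are given without the share of all genes that reached it. They are therefore not results about the members. Log2 fold changes were positive for 31, 33, 34 and 24 of the 37 in the same order, with medians of 0.49, 0.73, 1.13 and 0.13, where the median of all genes was between -0.03 and -0.01. These comparisons share their NI libraries. The quasi-likelihood test of edgeR also called no member in any of the 4 (0.00610%, 0.0122%, 0.427% and 0.0244% of all genes), with 9, 12, 15 and 5 at an unadjusted p under 0.05. The likelihood ratio test of edgeR, the package the study used, called 0, 2, 3 and 1 members (0.372%, 0.757%, 1.81% and 2.22% of all genes), and DESeq2 2, 2, 3 and 2 (0.513%, 0.690%, 2.26% and 2.03%). The former called Cd63 and Atp6v0d2 at 2 weeks after HS, Cd63, Ctsb and Grn at 1 week after FT and Cd63 at 2 weeks after FT. DESeq2 called Cd63 and Ctsb in all 4 groups, and also Scarb2 at 1 week after FT.

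In the mean of the 4 injured groups against NI, which weights each group equally and so gives the single FT 1 week library the weight of a whole group, limma-trend called 1 member, Cd63 (0.293% of all genes called). There 33 of 37 log2 fold changes were positive, the median was 0.55, and 15 had an unadjusted p under 0.05. The quasi-likelihood test called 1 (0.195% of all genes), the likelihood ratio test 2 (Cd63 and Ctsb; 4.09%) and DESeq2 3 (Cd63, Ctsa and Ctsb; 3.31%). In 5 of the 37 genes, Ctsb, Ctsa, Tpp1, Cd63 and Lamp2, every one of the 9 injured libraries was above every NI library, a pattern that 1.97% of all genes showed. The opposite pattern, every injured library below every NI library, was shown by no member and by 0.995% of all genes. Without NI replicate 1, 8 members were above (7.24% of all genes), with Ctsl, Gla and Ppt1 added. Group by group, 9 members at 1 week and 14 at 2 weeks after HS were above all NI libraries (7.31% and 12.9% of all genes), 6 at 2 weeks after FT (6.92%), and 32 in the single FT 1 week library (27.2%). Ctsf and Laptm4a were below all NI libraries in that library. The share of all genes below is not given here for single groups.

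**Figure D2:**
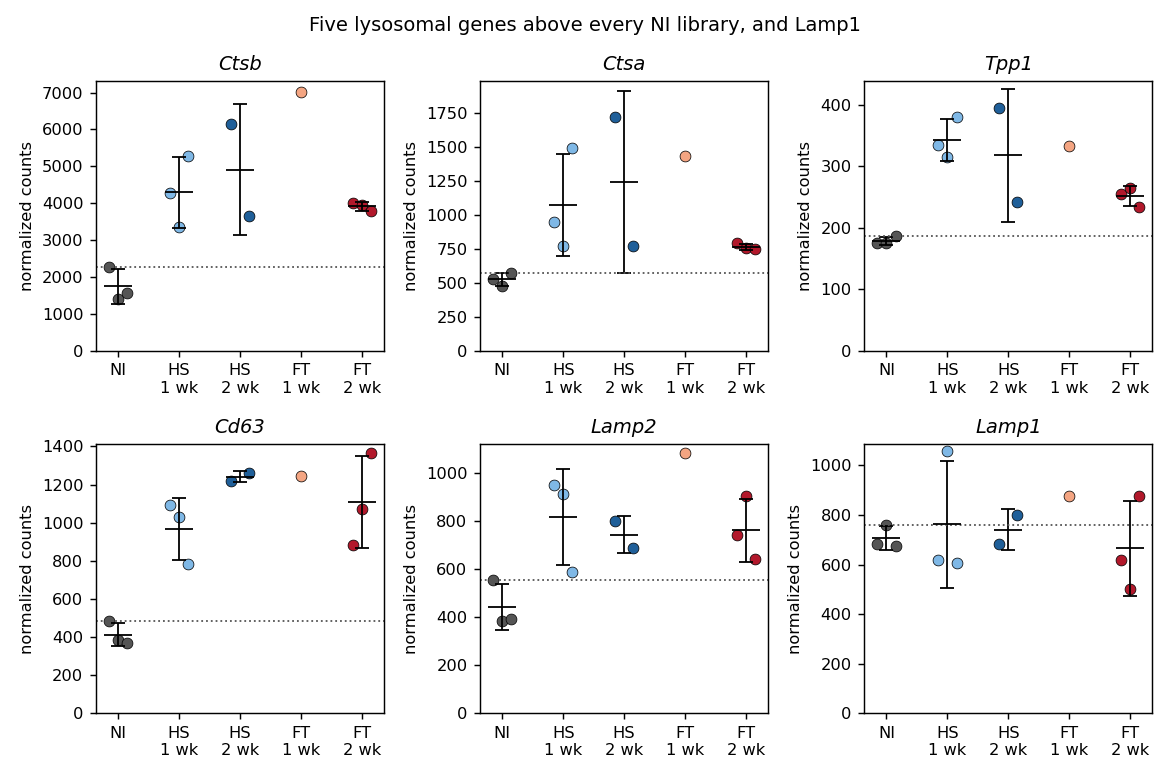
Normalized counts of 6 genes by group, with a point for each library, bars for the mean and SD of groups with 2 or more libraries, and a dotted line at the highest NI library. For Ctsb, Ctsa, Tpp1, Cd63 and Lamp2 all 9 injured libraries lie above the line, and for Lamp1, drawn for contrast, the groups overlap.

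Among the 10 cysteine proteases, which include the papain-like cathepsins and legumain, 8 had positive log2 fold changes in the mean of the injured groups (median 0.37) and 2 had an unadjusted p under 0.05, Ctsb and Ctsl. Ctsb encodes cathepsin B, an endopeptidase that also removes dipeptides from the carboxyl end (chromosome 14 of GRCm38, 63122462 to 63145923). It had 2279.8, 1400.2 and 1561 normalized counts in NI, 4264, 3353 and 5270.5 at 1 week and 6159 and 3646 at 2 weeks after HS, 7024 at 1 week and 4008, 3964 and 3778 at 2 weeks after FT. The groups did not overlap, and the lowest injured library, HS 1 week replicate 2, was also the one with the fewest microglial transcripts. The mean was 1747 ± 468 in NI (SD, n = 3) and 4607 ± 1263 after injury (SD, n = 9), and the log2 fold change of the mean of injured groups was 1.50 (standard error 0.30, adjusted p = 0.072 from limma-trend). Against NI the change was 1.31 (HS 1 week), 1.47 (HS 2 weeks), 2.04 (FT 1 week) and 1.20 (FT 2 weeks). The likelihood ratio test of edgeR called it at 1 week after FT (log2 fold change 2.01, FDR = 0.00963). Of the exon bases of Ctsb 12.8% are shared with Fdft1 on the other strand, and the libraries did not mark strand. Fdft1 had a log2 fold change of -0.61 (adjusted p = 0.495 from limma-trend).

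Ctsl encodes cathepsin L, an endopeptidase. Its values were 438, 297 and 267 in NI, 402, 580.2 and 616 at 1 week and 606 and 356 at 2 weeks after HS, 485 at 1 week and 397, 450.1 and 480.4 at 2 weeks after FT. NI replicate 1 overlapped the injured libraries, and the other NI libraries lay below all of them. Of its exon bases 26.9% are shared with the antisense model Gm47123 and 6.09% with the pseudogene Gm49230, neither of them among the genes tested.

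Ctss, Ctsc, Ctsh and Ctsz varied widely within groups, NI included, and their groups overlapped. Ctss, the cathepsin of antigen-presenting cells that stays active at neutral pH, had 237, 1868 and 2232 normalized counts in NI, 1419, 361 and 4691 at 1 week and 4982 and 696 at 2 weeks after HS, 4834 at 1 week and 698, 617 and 1191 at 2 weeks after FT. Libraries of NI and of HS 1 week each spanned a wide range, and the log2 fold change in the mean of injured groups was 0.82 (standard error 0.90, adjusted p = 0.738 from limma-trend). Without NI replicate 1 it was -0.21 (adjusted p = 0.928). Ctsc, a dipeptidyl peptidase that activates the serine proteases of granules, had 41.7, 124 and 156 in NI, 72.6, 22.2 and 264 at 1 week and 249 and 51.1 at 2 weeks after HS, 634 at 1 week and 43.5, 39.7 and 59.5 at 2 weeks after FT. The FT 1 week library stood above all others. Ctsh, mainly an aminopeptidase, had 58.5, 175 and 218 in NI, 108, 46.6 and 412 at 1 week and 355 and 80.0 at 2 weeks after HS, 297 at 1 week and 76.1, 73.6 and 109.9 at 2 weeks after FT. Ctsz, a carboxypeptidase abundant in myeloid cells, had 296, 421 and 499.8 in NI, 547, 338 and 1586 at 1 week and 1846 and 442 at 2 weeks after HS, 1615 at 1 week and 520.2, 434 and 605 at 2 weeks after FT. Its 3 highest libraries were again HS 1 week replicate 3, HS 2 weeks replicate 1 and FT 1 week.

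Lgmn encodes legumain, which cuts after asparagine and activates cathepsins. It had 441, 831 and 993 in NI, 660.0, 691 and 1796 at 1 week and 1177 and 465 at 2 weeks after HS, 1560.2 at 1 week and 627, 604 and 472 at 2 weeks after FT, so the groups overlapped. Ctsf, Ctso and the collagen-degrading Ctsk were low, and their injured groups with more than 1 library overlapped NI. In the single FT 1 week library Ctsf (93.1) lay below NI and Ctso (72.3) above it. Ctsf lay between 80.9 and 153 normalized counts, Ctso between 51.2 and 86.1, and Ctsk between 44.2 and 150.2, with its highest value in NI replicate 1, the NI library with the fewest microglial transcripts.

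All 3 aspartic and serine proteases had positive log2 fold changes against NI in each of the 4 injured groups, and none was called (limma-trend; 2, 2, 2 and 1 at an unadjusted p under 0.05 in the order HS 1 week, HS 2 weeks, FT 1 week, FT 2 weeks). Ctsa encodes the protective protein that holds galactosidase and neuraminidase in a complex (chromosome 2, 164832873 to 164841032). It had 525, 478 and 571 normalized counts in NI, 946, 773 and 1491 at 1 week and 1714 and 766 at 2 weeks after HS, 1429 at 1 week and 789, 755 and 745 at 2 weeks after FT. Every injured library was higher, the nearest to NI being 2 of the 3 at 2 weeks after FT, and the log2 fold change of the mean was 1.02 (standard error 0.27, adjusted p = 0.144 from limma-trend). Of its exon bases 10.5% are shared with Pltp and 6.87% with Neurl2 on the other strand. Tpp1 encodes a tripeptidyl peptidase whose loss causes a neuronal ceroid lipofuscinosis (chromosome 7, 105744811 to 105752235). Its NI libraries were close, at 175, 175 and 186, against 334, 314 and 380.5 at 1 week and 394 and 242 at 2 weeks after HS, 333 at 1 week and 254, 265 and 234 at 2 weeks after FT. The change was below 2-fold, with a log2 value of 0.78 (standard error 0.17, adjusted p = 0.0876 from limma-trend).

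Ctsd, the aspartic protease cathepsin D, was the member that varied most in absolute terms. It had 903, 2026 and 2254 normalized counts in NI, 3762, 1616 and 10265 at 1 week and 13206 and 2506 at 2 weeks after HS, 6646 at 1 week and 2937, 1843 and 3041 at 2 weeks after FT. At both times after HS 1 library stood far above the rest of its group. HS 1 week and FT 2 weeks overlapped NI, while the HS 2 weeks libraries and the single FT 1 week library lay above it. The log2 fold change of the mean was 1.47 (standard error 0.63, adjusted p = 0.334 from limma-trend), nearly the size of that of Ctsb with a larger standard error. Of the exon bases of Ctsd 34.4% are shared with the same-strand model Gm49369, which strand would not separate from Ctsd. Gm49369 was not among the genes tested. Together Ctsb and Ctsd made up 25.4% to 32.9% of the summed members in NI and 32.3% to 46.0% after injury.

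None of the 9 glycosidases and sulfatases, which take sugars and sulfate off glycans and glycolipids, was called against NI by limma-trend. Of the 9, 8 were positive in the mean of the injured groups (median 0.72), and 2, Gla and Glb1, had an unadjusted p under 0.05. Hexa, a subunit of the hexosaminidase that degrades the ganglioside GM2, had 135, 198 and 231 in NI, 239, 179.6 and 501 at 1 week and 580.3 and 220.3 at 2 weeks after HS, 452 at 1 week and 194, 184 and 225 at 2 weeks after FT. Man2b1, the acid mannosidase, had 61.5, 181 and 236 in NI, 193, 86.3 and 676 at 1 week and 782 and 146 at 2 weeks after HS, 456 at 1 week and 159, 88.6 and 145 at 2 weeks after FT. For both genes the 3 highest values were those of HS 1 week replicate 3, HS 2 weeks replicate 1 and FT 1 week. Gusb, the glucuronidase, had 32.8, 62.0 and 83.1 in NI, 77.0, 39.0 and 201 at 1 week and 220.0 and 58.9 at 2 weeks after HS, 187 at 1 week and 57.7, 51.2 and 63.9 at 2 weeks after FT. Arsb, the sulfatase of dermatan and chondroitin sulfate, did not share that order. It had 45.6, 225 and 280.5 in NI, 126, 64.5 and 343 at 1 week and 259 and 95.9 at 2 weeks after HS, 165 at 1 week and 87.9, 66.8 and 93.6 at 2 weeks after FT. A share of 32.3% of its exon bases overlaps Gm26527 on the other strand, which was not among the genes tested. Of those of Hexa 12.8% overlap Tmem202, also on the other strand. The other glycosidases, Galc (the galactosidase of myelin galactosylceramide), Gla, Glb1, Naglu and Neu1, had at most 56.5 normalized counts in any library.

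The 3 lipid hydrolases, Asah1 (acid ceramidase), Lipa (acid lipase for cholesteryl esters) and Ppt1 (a thioesterase that takes palmitate off proteins), were positive in all 4 comparisons with NI. In the mean of the injured groups their log2 fold changes lay between 0.49 and 0.68, each with an unadjusted p under 0.05 and none called by limma-trend. Asah1 lay between 127 and 255 normalized counts over the 12 libraries, Lipa between 77.2 and 233, and Ppt1 between 263 and 506.

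Of the precursors, Grn encodes progranulin, a secreted glycoprotein that is cut to granulins in lysosomes. It had 131, 302 and 309 normalized counts in NI, 439.7, 205 and 1334 at 1 week and 1151 and 252 at 2 weeks after HS, 1465 at 1 week and 287, 202 and 307 at 2 weeks after FT. The FT 1 week library was the highest of all, and the libraries at 2 weeks after FT lay within the range of NI. At 1 week after FT the change was 2.66 on the log2 scale (standard error 0.97, adjusted p = 0.338 from limma-trend), where edgeR's likelihood ratio test called it (2.57, FDR = 0.0482). Over the injured groups it was 1.29 (standard error 0.58, adjusted p = 0.354 from limma-trend). Psap, the precursor of the saposins that present sphingolipids to their hydrolases, had 458, 1198 and 1093 in NI, 931, 1648 and 1336 at 1 week and 1758 and 1268 at 2 weeks after HS, 1311 at 1 week and 698, 772 and 1166 at 2 weeks after FT. HS 1 week and FT 2 weeks overlapped NI, and the HS 2 weeks libraries and the single FT 1 week library lay above it.

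The membrane proteins held the 1 member that was called. Cd63, a tetraspanin of late endosomes, lysosomes and exosomes (chromosome 10, 128900989 to 128912822), rose in the mean of the injured groups. It had 483, 384 and 370.2 normalized counts in NI, 1093, 1028 and 782 at 1 week and 1220.0 and 1261 at 2 weeks after HS, 1244 at 1 week and 885, 1072 and 1364 at 2 weeks after FT. The lowest injured library was HS 1 week replicate 3, which lay well above the highest NI library. Its mean was 412 ± 61.2 in NI (SD, n = 3) and 1105 ± 188 after injury (SD, n = 9), and the log2 fold change was 1.46 (standard error 0.20, adjusted p = 0.0159 from limma-trend; adjusted p = 0.0355 from the quasi-likelihood test of edgeR). Against NI the 4 groups had log2 fold changes of 1.22, 1.60, 1.60 and 1.41 in the order HS 1 week, HS 2 weeks, FT 1 week, FT 2 weeks, with adjusted p of 0.204, 0.121, 0.0796 and 0.107 from limma-trend. Without NI replicate 2 or 3 the adjusted p of the mean was 0.11 and 0.132, with log2 fold changes of 1.41 and 1.39.

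Lamp2, a major glycoprotein of the lysosomal membrane that also serves chaperone-mediated autophagy (chromosome X, 38401357 to 38456454), had 556, 384 and 391 in NI, 953, 913 and 591 at 1 week and 799.9 and 689 at 2 weeks after HS, 1087 at 1 week and 742, 904 and 644 at 2 weeks after FT. The groups did not overlap, although NI replicate 1 and HS 1 week replicate 3 were near each other, and the log2 fold change was 0.93 (standard error 0.22, adjusted p = 0.113 from limma-trend). Lamp1, the related glycoprotein, had 682, 761 and 674 in NI, 619.7, 1057 and 607 at 1 week and 682 and 799 at 2 weeks after HS, 877 at 1 week and 620.1, 499.9 and 874 at 2 weeks after FT. Its groups overlapped, and its log2 fold change in the mean was 0.08 (standard error 0.23). Of its exon bases 9.31% are shared with Grtp1 on the other strand. The difference between Lamp1 and Lamp2 in response to injury was not tested.

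Scarb2, the receptor that carries glucocerebrosidase to lysosomes, lay between 69.7 and 76.5 in NI and between 70.4 and 170.4 after injury, where FT 2 weeks replicate 2 was the 1 library within the NI range. Its log2 fold change at 1 week after FT was 1.19 (adjusted p = 0.128 from limma-trend). Cd68, the macrosialin of phagocytes, had 30.6, 104 and 152 in NI, 127, 24.8 and 339.9 at 1 week and 507 and 93.5 at 2 weeks after HS, 297 at 1 week and 106, 55.8 and 126 at 2 weeks after FT. Laptm5, a lysosomal membrane protein of blood cells and microglia, had 99.8, 547 and 864 in NI, 442, 84.8 and 1603 at 1 week and 1505 and 233 at 2 weeks after HS, 1321 at 1 week and 273, 192 and 273 at 2 weeks after FT. Both genes were lowest in HS 1 week replicate 2. Its widely expressed relative Laptm4a lay between 221 and 596, with the lowest value in HS 1 week replicate 3 and the highest in HS 1 week replicate 2.

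Atp6v0d2, the inducible pump subunit of osteoclasts and macrophages, was near the limit of detection in NI. It had 0.864, 0.447 and 1.08 normalized counts there (11, 7 and 15 reads), 3.15, 0.260 and 1.16 at 1 week and 5.41 and 4.98 at 2 weeks after HS, 1.21 at 1 week and 2.99, 3.73 and 1.33 at 2 weeks after FT. Both HS 2 weeks libraries, with 76 and 68 reads, were above all others. The log2 fold change there was 1.80 (adjusted p = 0.454 from limma-trend), and 2.70 in the likelihood ratio test of edgeR, which called it (FDR = 0.0281). Tfeb, the transcription factor named above, had 27.5, 17.5 and 23.3 in NI, 24.7, 29.5 and 32.1 at 1 week and 37.7 and 21.2 at 2 weeks after HS, 25.8 at 1 week and 34.7, 14.3 and 9.93 at 2 weeks after FT. Its groups overlapped, with both the lowest and one of the highest values at 2 weeks after FT. Mcoln1, the calcium channel of the lysosomal membrane, lay between 14.9 and 24.8 in all libraries.

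How far each gene followed the microglial transcripts was measured within groups, in a limma-trend model with group and the log2 sum of the 17 microglia and macrophage genes. A slope of 1 means that a gene doubled when the sum doubled, and a gene was called at an adjusted p under 0.05 and a slope of at least 0.5. Such a slope was called for 11 of the 37 members, all of them positive (6.28% of all genes were called, 4.67% with a positive and 1.61% with a negative slope). They were Laptm5 (1.09), Ctss (1.08), Cd68 (0.93), Ctsc (0.84), Man2b1 (0.79), Ctsh (0.78), Arsb (0.71), Ctsd (0.70), Grn (0.68), Gusb (0.59) and Ctsz (0.54), with adjusted p of at most 0.000467 from limma-trend. The other 3 tools also called 11 members each (quasi-likelihood test 9.30%, likelihood ratio test 9.88% and DESeq2 9.33% of all genes). Laptm5, Ctss and Cd68 thus rose about in step with the microglial sum. The slope of Ctsz fell under 0.5 without HS 1 week replicate 3 (0.47) and without either HS 2 weeks library (0.47).

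**Figure D3:**
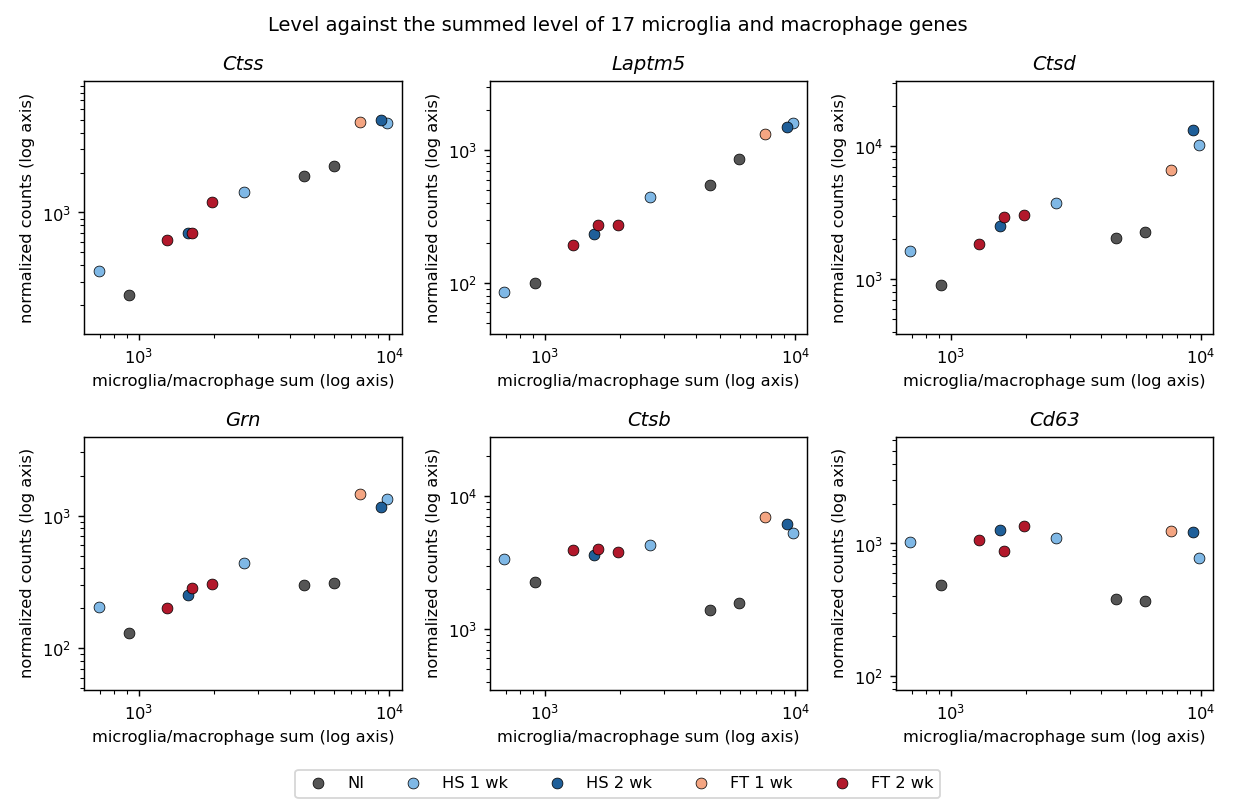
Normalized counts of 6 genes (vertical log axes) against the summed level of 17 microglia and macrophage genes (horizontal log axes), with a point for each of the 12 libraries coloured by group. Ctss and Laptm5 rise with the sum across all groups, Ctsd and Grn rise with it while NI libraries lie low, and Ctsb and Cd63 show every injured library above every NI library.

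Among the other members named here, slopes near 0 were found for Cd63 (-0.09 ± 0.07, standard error), Ctsb (0.08 ± 0.10), Lamp1 (-0.10 ± 0.08), Lamp2 (-0.13 ± 0.07), Tpp1 (0.10 ± 0.06), Scarb2 (0.02 ± 0.06), Ctsl (0.00 ± 0.08) and Tfeb (0.03 ± 0.12). Ctsa had a slope of 0.22 ± 0.08. Ctsk had a negative slope of -0.37 (adjusted p = 0.000797 from limma-trend) that was under the size threshold, and the ratio of Ctss to Ctsk ranged from 1.58 in NI replicate 1 to 106 in HS 1 week replicate 3. Other cell types moved with the microglial sum in the same model. Of 15 astrocyte genes 12 were called with a negative slope, and of 10 neutrophil genes 8 and of 9 monocyte and macrophage genes 5 with a positive one. Of 8 pericyte and fibroblast genes 5 were called with a negative slope and 1 with a positive one. Of 12 neuronal genes 2 were called with a negative slope. Against the astrocyte sum instead, the same number of members, 11, was called, all with negative slopes (7.07% of all genes were called, 4.30% with a negative slope). The set was not the same. Hexa (-0.53) and Lgmn (-0.59) were called on the astrocyte sum. Ctss (-1.21, adjusted p = 0.0506 from limma-trend) and Arsb (-0.81, adjusted p = 0.0519) were not. On a sum over 9 homeostatic microglia genes, Hexa and Lgmn had slopes of 0.44 and 0.47, under the size threshold. Their adjusted p were 0.000481 and 0.00186 from limma-trend. Psap had 0.19 (adjusted p = 0.309) on that sum. Which of these cell types the transcripts came from was not tested.

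With the microglial sum as a covariate, 2 members were called at 1 week after HS (Cd63 and Grn), 2 at 2 weeks after HS (Cd63 and Cd68), 6 at 1 week after FT (Cd63, Ctsb, Ctsc, Grn, Lamp2 and Scarb2) and 1 at 2 weeks after FT (Cd63), all higher and all by limma-trend, where 0.555%, 1.01%, 4.39% and 0.531% of all genes were called. In the mean of the injured groups Cd63 (log2 fold change 1.47), Ctsb (1.49), Ctsd (1.34) and Grn (1.17) were called (3.96% of all genes). Ctsc was called for FT against HS at 1 week (log2 difference 1.75, 0.732% of all genes) and for 2 weeks against 1 week after FT (-1.84, 0.604%), and no member was called between severities at 2 weeks or between times after HS (0% of all genes in both). The change of Cd63 and of Ctsb was thus as large with the covariate as without it. The median over the members in the FT 1 week library was 0.62 with it and 1.13 without it, and at 2 weeks after FT 0.36 and 0.13.

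**Figure D4:**
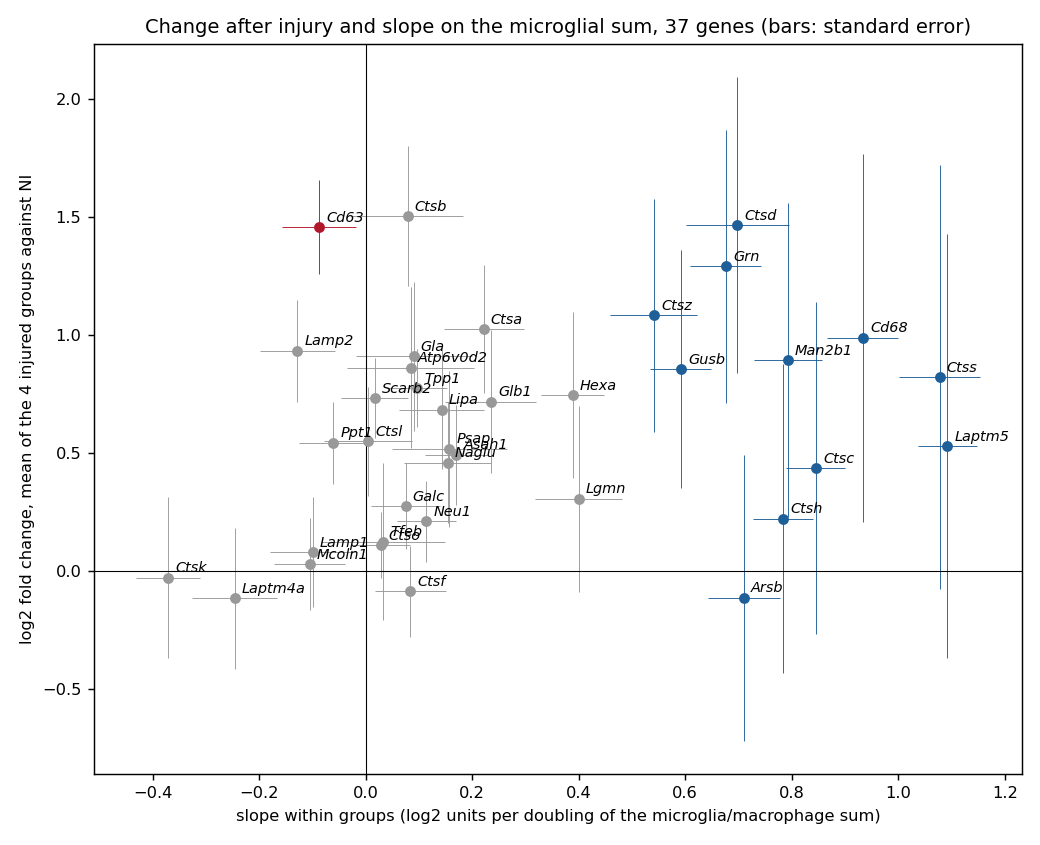
Log2 fold change of the mean of the 4 injured groups against NI (vertical axis) and slope within groups on the log2 microglia and macrophage sum (horizontal axis) for the 37 genes, with bars for the standard error. Cd63 (red) was called for the change and 11 genes (blue) for the slope, and Cd63 and Ctsb combine a change of about 1.5 with a slope near 0.

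No member was called by limma-trend when the severities were compared at 1 week (0.348% of all genes called) or 2 weeks (0% called), or when 2 weeks was compared with 1 week after HS (0% called) or FT (0.384% called). At an unadjusted p under 0.05 there were 1, 2, 2 and 5 members, and the quasi-likelihood test of edgeR called none (1, 2, 2 and 6 at an unadjusted p under 0.05, with 0.226%, 0%, 0% and 0.244% of all genes called). In the first 3 of these comparisons the likelihood ratio test called no member (1, 10 and 1 at an unadjusted p under 0.05) of 0.696%, 0% and 0% of all genes called, and DESeq2 none (1, 6 and 2) of 0.763%, 0% and 0%. In the last, DESeq2 called Ctsc (1.35% of all genes). Median log2 differences of the members were 0.44 for FT against HS at 1 week, -0.54 at 2 weeks, 0.17 for 2 weeks against 1 week after HS and -0.84 after FT. Ctsc had the largest difference over time after FT, -3.73 (standard error 1.18, adjusted p = 0.346 from limma-trend), which edgeR's likelihood ratio test called (-3.74, FDR = 0.00332, with 1.31% of all genes called). With only the FT groups in the fit, limma-trend called 12 members lower at 2 weeks, where 9.71% of all genes were called and 4.65% were called lower. All comparisons with FT at 1 week rest on 1 library, whose monocyte and macrophage sum, 7412, was the highest (4494 or less elsewhere). Of this, Cd74, the invariant chain of MHC class II, made up 6252, and the other 8 genes summed to 1160.4 there and to between 90.8 and 2951 in the other libraries. That sum's part in the difference was not tested. No member was called for an interaction of time and severity by limma-trend, 4 had an unadjusted p under 0.05 and 14 of all genes were called. The other tools were not run on the interaction.

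Further lysosomal genes, from lists drawn up with earlier results of these data known, leaned the same way with smaller medians. Their highest log2 fold change in the mean of the injured groups was 2.51, among the other membrane proteins, above the highest of the members (1.50). In the mean of the injured groups 31 of 32 other hydrolases and activators had positive log2 fold changes (median 0.46), 18 of 22 other membrane proteins (0.40), 17 of 18 vacuolar ATPase subunits (0.29), 9 of 11 genes of sorting to the lysosome (0.16) and 10 of 15 regulators of lysosomal genes (0.06), where the median of all genes was near 0. None was called by limma-trend, with 12, 8, 5, 4 and 2 at an unadjusted p under 0.05, and none by the quasi-likelihood test of edgeR, with 12, 8, 4, 3 and 3. The likelihood ratio test of edgeR called Gpnmb among the membrane proteins, and DESeq2 called Gpnmb and the hydrolase gene Pld3. The smallest p among the hydrolases was that of Sgsh, the heparan sulfamidase (log2 fold change 0.90, adjusted p = 0.0717 from limma-trend), followed by Dpp7 (0.92, adjusted p = 0.116). Cln3 and Clcn7, a membrane protein of neuronal ceroid lipofuscinosis and a chloride exchanger, had 0.62 and 0.80, Atp6v1a and Atp6v1b2, subunits of the pump, 0.56 and 0.53, and Igf2r and M6pr, the mannose 6-phosphate receptors, 0.74 and 0.48. Of these 6 the lowest adjusted p from limma-trend was 0.0871. Flcn and Mtor, both of the pathway that holds TFEB in the cytosol, had 0.48 and 0.34.

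Cystatins inhibit cysteine cathepsins, and 4 genes of the family were measured. Cst7, cystatin F, which enters lysosomes of immune cells, had a mean of 7.93 in NI, 40.3 in HS 1 week, 146 in HS 2 weeks, 209 in FT 1 week and 56.5 in FT 2 weeks. Its log2 fold change was 3.42 (standard error 0.63, adjusted p = 0.066 from limma-trend), its slope on the microglial sum was 0.71, and the likelihood ratio test of edgeR and DESeq2 called it in the mean. Cstb, an inhibitor of the cytosol, had 0.61 (adjusted p = 0.246 from limma-trend). The family did not rise as a whole. Only 2 of the 4 genes had positive log2 fold changes in the mean of the injured groups, with a median of 0.19 and a lowest value of -0.53. On the microglial sum, genes called with positive slopes by limma-trend included Pla2g15 (slope 0.91) among the hydrolases, Slc15a3 (1.07), Slc11a1 (0.99) and Slc36a1 (0.50) among membrane transporters and the pump subunit Tcirg1 (0.52). No gene of sorting or regulation was called by limma-trend, while the other 3 tools called the regulator Tfec. Cst6 was called with a negative slope (-0.52).

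Per kilobase of annotated exon, the most abundant members in NI were Ctss (median 1376 normalized counts per kilobase), Ctsd (862), Psap (398), Lgmn (358), Ctsz (292), Ctsb (258) and Lamp1 (255), and the least abundant was Atp6v0d2 (0.318). Not scaled by length, Ctss spanned 237 to 2232 normalized counts over the NI libraries and Ctsd 903 to 2254, and neighbours in this order were not tested against each other.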

How the data were processed

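RNA from sorted eGFP+ cells was amplified (SMARTer) and made into Nextera libraries, which do not mark strand. The authors mapped reads to GRCm38 (mm10) with TopHat2 2.0.9, counted genes with HTSeq 0.5.4p3 (strand setting not given in the sources used here) and normalized with edgeR 3.3.6. The deposited values are normalized counts, a signal equal to reads divided by 1 factor per library. Whole reads were recovered for 100% of values within 1e-06 of a read and used for the count tests. 0 columns belonged to no sample. Gene positions and exon overlaps given here are from the GENCODE annotation, whereas the paper names UCSC mm10 for its mapping.

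Genes whose mean reached 0.5 in any group were kept, and log2(normalized count + 1) was fitted with limma 3.58.1 (trend; 7 residual and 3.687 prior degrees of freedom) in R 4.3.3, all groups together. The FT 1 week library was assumed to vary like the other groups. P-values measure the spread between libraries of pooled animals. A gene was called at an adjusted p under 0.05 and at least 2-fold, or a slope of at least 0.5. Alternatives (14 settings) included edgeR 4.0.16 and DESeq2 1.42.0 on the reads. The fits were also run on simulated data, in which noise was drawn separately for each gene, without shifts in cell types shared by many genes. The outcome is not given here, and no result rests on it. Tables and plots used Python 3.11.15.

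The members and lists were chosen with earlier results of these data known. Named in full were members called by any tool for a change or slope, members whose injured libraries all lay above NI, and 15 representative members. Other members are given by range, and of further lists the pair of genes with the smallest p or those called, except 1 called gene that is not reported here. Cell type lists are given as summed levels.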

Additional observations from a re-analysis of the deposited data

How the results depend on the processing

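The count of members called depended on the tool and on the microglial covariate. Where limma-trend called 0 members, DESeq2 called 2 at 1 week and 2 at 2 weeks after HS, 3 at 1 and 2 at 2 weeks after FT, all against NI, and 1 between 2 weeks and 1 week after FT. The likelihood ratio test of edgeR called 2 at 2 weeks after HS, 3 at 1 week and 1 at 2 weeks after FT, and 1 between 2 weeks and 1 week after FT. With the covariate the counts against NI were 2 and 2 after HS and 6 and 1 after FT, with 1 for FT against HS at 1 week and 1 for 2 weeks against 1 week after FT. In the mean of the injured groups, where 1 member was called, DESeq2 called 3, the likelihood ratio test 2, the covariate fit 4 and a filter at a mean of 5 called 2 (0.371% of all genes). With only the compared groups in the fit, 12 members were called lower at 2 weeks than at 1 week after FT, with the spread taken from 1 group (4.65% of all genes were called lower). Against the astrocyte sum, 11 members had called slopes, all negative (4.30% of all genes). Leaving out 1 library at a time gave 0 to 1 members at 2 weeks after FT (1 without NI replicate 1, 2.79% of all genes) and 0 to 3 in the mean (3 without NI replicate 1, 2.26% of all genes, 2 without HS 1 week replicate 3, 0.964%, 0 without NI replicate 2 or 3). It gave 10 to 12 called slopes, without the share of all genes here, and 0 members in the other comparisons. Members above every NI library numbered 5 to 8 without NI replicate 1, 2 or 3 or without the FT 1 week library. No other library was left out for that count. The change of Ctss in the mean ran from -0.21 (adjusted p = 0.928 from limma-trend, without NI replicate 1) to 1.40. Slopes near 0 changed sign for Ctsl (-0.000849 after rescaling by median ratios, -0.0261 with a replicate block, -0.00535 in DESeq2, and -0.0777 to 0.104 leaving out 1 library), Lamp1 (-0.149 to 0.000314) and Tfeb (-0.0448 to 0.111). The cause of these differences was not tested.

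Whether replicate numbers pair the libraries was left undecided. Of 15 pairs of libraries with the same number, deviations from the group means had a correlation over 0.1 in 5 (range -0.48 to 0.72). Of 11 libraries, 6 correlated best with one of their own number. The check cannot exclude pairing, because the 2 HS 2 weeks libraries deviate from their mean as mirror images. With a replicate block 0 members were called in each comparison of 2 groups, 1 in the mean (Cd63, log2 fold change 1.45, adjusted p = 0.0282 from limma-trend) and 10 slopes. The shares of all genes called with the block are not given here, so these counts have no background beside them. Low genes such as Atp6v0d2, with 3 to 76 reads a library, are limited by depth.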
